A study of Homo sapiens with 6 samples.

Results

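Hyaluronan is a long, unsulfated sugar polymer of the extracellular matrix, and 10 human genes that make it, cut it, bind it or receive its signal were chosen by name and followed in RPMI8226 cells, a human multiple myeloma (MM) line grown from plasma cells. The 10 genes are the receptors CD44 and HMMR, the synthases HAS1, HAS2 and HAS3, the hyaluronidases HYAL1, HYAL2 and HYAL3, the proteoglycan VCAN and the secreted binding protein TNFAIP6, out of 63677 genes in the count table. No measured value entered the choice, although earlier results of these data were known when the genes were listed. RNA-Seq was performed on wild-type cells of this line after 6 hr with 100 nM of recombinant glutathione-S-transferase (GST) or 100 nM of GST-PTR1, in which GST is fused to the PTR1 domain of HAPLN1. Each treatment had 3 biological replicates, and GST, which both proteins share, served as the control. The comparison asks which transcripts differ once the cells have met a domain of a protein that normally links hyaluronan to proteoglycans. All values come from 1 cell line at 1 dose and 1 time.

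Cells polymerise hyaluronan at the plasma membrane with HAS enzymes and extrude it as it grows, and hyaluronidases and lysosomal glycosidases later break it down. Link proteins such as HAPLN1 clamp hyaluronan to lecticans such as versican, the product of VCAN, while TNFAIP6 can transfer heavy chains onto the polymer and so cross-link it. In the bone marrow, where myeloma grows, hyaluronan and its receptor CD44 are known for a part in the adhesion of the tumor cells to the matrix.

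The 6 libraries held between 15202503 and 44688737 counts. Totals were 15202503, 20077280 and 23453473 with GST and 22874133, 28837431 and 44688737 with GST-PTR1, and values of 3 libraries are given in that order. Of 8 plasma cell markers, 8 were detected above the filter on low counts, and their summed level was 4279 to 5231 CPM (counts scaled by library total) with GST and 3731 to 4312 CPM with GST-PTR1. In the test described below IRF4 and PRDM1 were called higher and SDC1, TNFRSF17 and XBP1 lower, and the call of XBP1 was lost in 4 of 14 alternatives (adjusted p of 0.0522 to 0.0833), among them those without the library of 23453473 or 28837431 counts. Stromal markers summed to 0.263 to 0.554 CPM with GST and 0.336 to 0.393 CPM with GST-PTR1, with COL1A2, COL3A1, DCN and LUM at 0 in all libraries. Monocyte and macrophage markers summed to 0.747 to 1.64 CPM with GST and 0.555 to 0.831 CPM with GST-PTR1, with FCGR3A and CD163 at 0. Only CD14 among these markers passed the filter, and it was not called. Of 5 T cell markers in the table, CD8A carried nearly all counts (log2 fold change -0.70, adjusted p = 0.0132 by edgeR, or 0.0579 and 0.0642 without the library of 23453473 or 28837431 counts), and their sum was 5.33 to 5.63 CPM with GST and 2.64 to 3.37 CPM with GST-PTR1, while CD3D, CD3E, CD3G and CD2 had at most 2 counts in any library. These values are levels on library totals. In such bulk RNA, fewer cells that express a gene and less RNA per cell cannot be told apart.

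Of the 10 hyaluronan genes, CD44 and TNFAIP6 were higher with GST-PTR1, by 4.49 ± 0.30 and 6.60 ± 0.43 on the log2 scale (± SE, n = 3 each). HMMR, HAS3, HYAL2 and HYAL3 did not pass the test at levels that differed little between treatments, HAS2 and VCAN gave at most 6 counts in a library, HYAL1 at most 2, and HAS1 gave 0. With the quasi-likelihood test of edgeR and Benjamini-Hochberg adjustment, 6 of the 10 genes could be tested, 2 were called higher and 0 lower at an adjusted p of 0.05, beside 9.15% of the 16926 genes tested that were called higher and 11.4% that were called lower. CD44 and TNFAIP6 entered the test through their GST-PTR1 counts alone, as 411 of all genes tested did, so a difference in these genes was a condition of entry and their number among the tested genes is not evidence about the group. Fold changes from the fit are relative to the bulk of genes, whose median log2 fold change was 0.01.

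**Figure D1:**
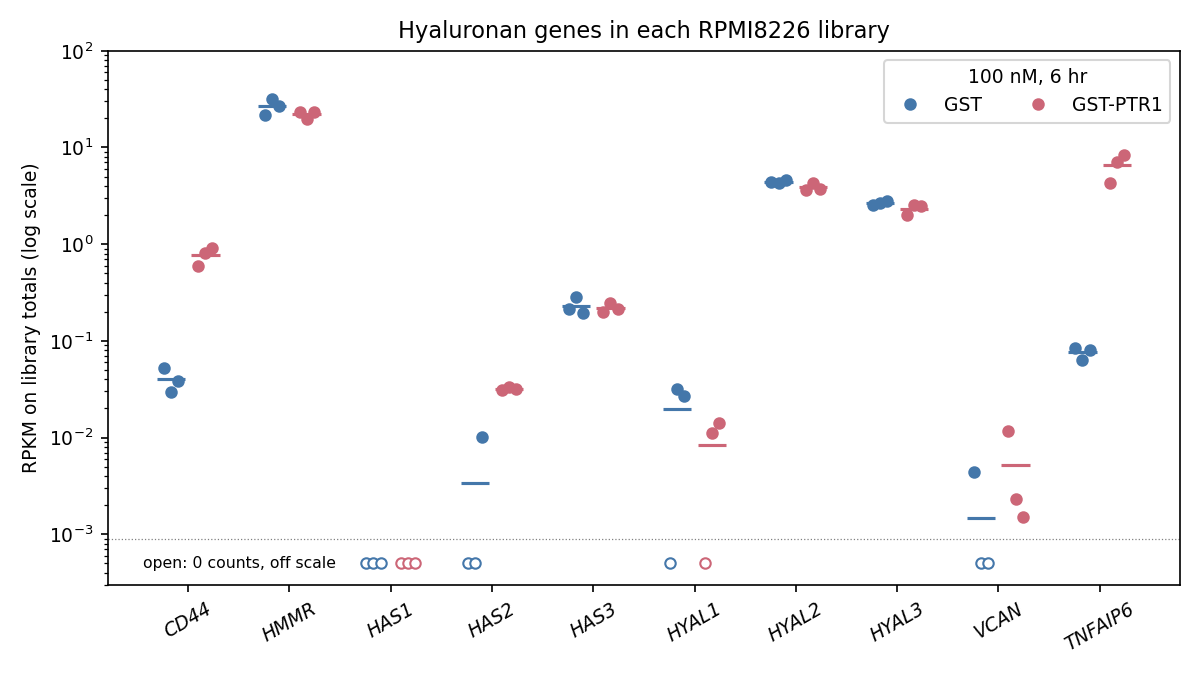
Level of each of the 10 genes in each library, as RPKM (CPM divided by the exon length in kilobases, log axis), with GST in blue and GST-PTR1 in red. Points are libraries, bars are means of 3, and open points under the dotted line are libraries with 0 counts, which have no place on a log axis. TNFAIP6 and CD44 are the genes whose GST-PTR1 points lie far above their GST points, with means of 6.56 against 0.0759 and of 0.769 against 0.0401 RPKM.

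CD44 encodes the main cell-surface receptor for hyaluronan. Its gene (ENSG00000026508) lies at chr11:35160417-35253949 on the plus strand of GRCh37. Its counts were 8, 6 and 9 with GST and 136, 236 and 406 with GST-PTR1. On library totals these were 0.526, 0.299 and 0.384 CPM with GST and 5.95, 8.18 and 9.09 CPM with GST-PTR1. The lowest GST-PTR1 library therefore stood far above the highest GST library, and the treatments did not overlap, which was true of 43.1% of all genes tested. The log2 fold change was 4.49 (95% interval 3.84 to 5.15), a 22.5-fold difference, and edgeR's adjusted p was 1.68e-06. By this change CD44 was gene 76 of the 16926 tested. Pooled over libraries, 23 counts with GST and 778 with GST-PTR1 gave a ratio of 20.6, with an exact interval of 13.6 to 32.7 that, like all such intervals and floors here, covers counting error only. Of the tested genes, 0.396% had a lower mean RPKM than CD44 with GST and 19.8% did with GST-PTR1. Genes under the filter are left out of these ranks, and CD44 passed the filter through its GST-PTR1 counts alone. Its low rank with GST was therefore in part a condition of entry. Counts were made per gene, so the variant exons for which CD44 is known cannot be told apart.

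HMMR encodes RHAMM, a hyaluronan receptor that also binds microtubules and acts at the mitotic spindle of dividing cells. Its gene (ENSG00000072571) is at chr5:162887209-162918947. It had 1307, 2526 and 2463 counts with GST and 2086, 2240 and 4052 with GST-PTR1. The corresponding levels were 86.0, 126 and 105 CPM with GST and 91.2, 77.7 and 90.7 CPM with GST-PTR1. The ranges overlapped, and the spread among GST libraries was as wide as the gap between the means of 106 ± 19.9 and 86.5 ± 7.66 CPM (SD, n = 3 each). The log2 fold change was -0.093 (95% interval -0.42 to 0.24, adjusted p = 0.689 by edgeR), and leaving out the 20077280-count GST library made it 0.068. On library totals in place of TMM factors it was -0.29 (adjusted p = 0.146 by edgeR). HMMR was the most abundant of the 10 genes per kilobase in both treatments. Its level was above that of 86.1% of the genes tested with GST and of 83.5% with GST-PTR1.

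The 3 hyaluronan synthases ranged from undetected to low. HAS1 (ENSG00000105509) had 0 counts in all 6 libraries, 0 of 155133557 counts, which allows a level of up to 0.0193 CPM. HAS2 (ENSG00000170961), the synthase known for long chains, had 0, 0 and 1 counts with GST and 3, 4 and 6 with GST-PTR1. Each GST-PTR1 library thus held more HAS2 counts than any GST library, and on library totals the levels of 0.131, 0.139 and 0.134 CPM lay above 0, 0 and 0.0426 CPM. HAS2 was under the filter and was not tested. Its pooled ratio, 13 counts against 1, was 7.92 with an exact interval of 1.19 to 337. With a filter of at least 1 count in any library its log2 fold change was 2.88 and edgeR's adjusted p was 0.0908, so that HAS2 was not called.

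HAS3 (ENSG00000103044, chr16:69139467-69152622) held most of the synthase counts. It had 17, 30 and 24 counts with GST and 24, 38 and 50 with GST-PTR1. Its levels were 1.12, 1.49 and 1.02 CPM with GST and 1.05, 1.32 and 1.12 CPM with GST-PTR1. The treatments overlapped, and the log2 fold change of 0.14 had an interval wide enough, -0.43 to 0.71, to hold a change of 1.63-fold upward or of 0.745-fold (adjusted p = 0.726 by edgeR). On library totals in place of TMM factors, its sign turned, at -0.059.

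The hyaluronidases were split by abundance. HYAL2, a hyaluronidase anchored at the cell surface by a lipid tail, and HYAL3, a related enzyme of less certain function, were well covered, whereas HYAL1, the lysosomal enzyme, was not. HYAL1 (ENSG00000114378) had 0, 2 and 2 counts with GST and 0, 1 and 2 with GST-PTR1, at or below 3 in every library, so no fold is given. HYAL2 (ENSG00000068001, chr3:50355221-50360337, minus strand) had 300, 391 and 488 counts with GST and 378, 568 and 752 with GST-PTR1. These were 19.7, 19.5 and 20.8 CPM with GST and 16.5, 19.7 and 16.8 CPM with GST-PTR1. The ranges met in a single GST-PTR1 library, and the log2 fold change was 0.019 (95% interval -0.25 to 0.28, adjusted p = 0.927 by edgeR), and it turned to -0.18 on library totals. HYAL3 (ENSG00000186792, chr3:50330262-50336899, minus strand) had 78, 108 and 132 counts with GST and 94, 148 and 223 with GST-PTR1. Its levels of 5.13, 5.38 and 5.63 CPM with GST overlapped those of 4.11, 5.13 and 4.99 CPM with GST-PTR1, and the log2 fold change was 0.023 (95% interval -0.35 to 0.40, adjusted p = 0.937 by edgeR), likewise -0.18 on library totals.

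HYAL2 and HYAL3 lie within a cluster of genes that share exons, and reads overlapping more than one gene on a strand were not counted. HYAL2 shares 509 exon bases, 11.2% of its exon length, with TUSC2 on the same strand. HYAL3 shares 248 bases (12.2%) with NAA80, an actin acetyltransferase gene, and 43 bases (2.12%) with IFRD2. TUSC2 had a log2 fold change of 0.18 (adjusted p = 0.244 by edgeR) and IFRD2 of 0.28 (adjusted p = 0.073). NAA80 had 317, 295 and 405 counts with GST and 292, 331 and 409 with GST-PTR1, a log2 fold change of -0.47 (adjusted p = 0.047 by edgeR). The part of these shared bases in the values of HYAL2 and HYAL3 was not tested. The other overlaps, of CD44, HMMR, HAS2, HAS3 and VCAN with CD44-AS1, HMMR-AS1, HAS2-AS1, CHTF8 and VCAN-AS1, are on the opposite strand, which the counting was set to tell apart. The 4 antisense genes among them had at most 2 counts in a library. CHTF8, which shares 365 bases (6.90% of the exon length of HAS3), had 1093, 1235 and 1706 counts with GST and 1706, 1818 and 2583 with GST-PTR1. Whether reads of CHTF8 entered the low counts of HAS3 was not tested.

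VCAN (ENSG00000038427, chr5:82767284-82878122) encodes versican, a large proteoglycan that binds hyaluronan through its amino-terminal end. It had 1, 0 and 0 counts with GST and 4, 1 and 1 with GST-PTR1. A single GST-PTR1 library carried most of these counts and the treatments overlapped. VCAN was not tested, and its pooled ratio of 3.66 had an exact interval of 0.444 to 168.

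TNFAIP6 encodes TSG-6, a secreted protein with a hyaluronan-binding link module that is known to be made in inflammation. Its gene (ENSG00000123610) is at chr2:152214106-152236560 on the plus strand of GRCh37. It had 2, 2 and 3 counts with GST and 155, 319 and 590 with GST-PTR1. These were 0.132, 0.0996 and 0.128 CPM with GST and 6.78, 11.1 and 13.2 CPM with GST-PTR1. Every GST library was at or below 3 counts, and every GST-PTR1 library was far above them, at a mean of 10.3 ± 3.27 CPM (SD, n = 3). The pooled ratio, 1064 counts against 7, was 92.6 with an exact interval of 44.8 to 231. The fitted log2 fold change was 6.60 (95% interval 5.66 to 7.54, adjusted p = 1.38e-06 by edgeR), which ranked 27 among all genes tested and which, with so few GST counts, depends on the model. Per kilobase its level was above 1.08% of the tested genes with GST and above 60.9% with GST-PTR1. Genes under the filter are left out of these ranks, and TNFAIP6 passed the filter through its GST-PTR1 counts alone. Its low rank with GST was therefore in part a condition of entry.

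**Figure D2:**
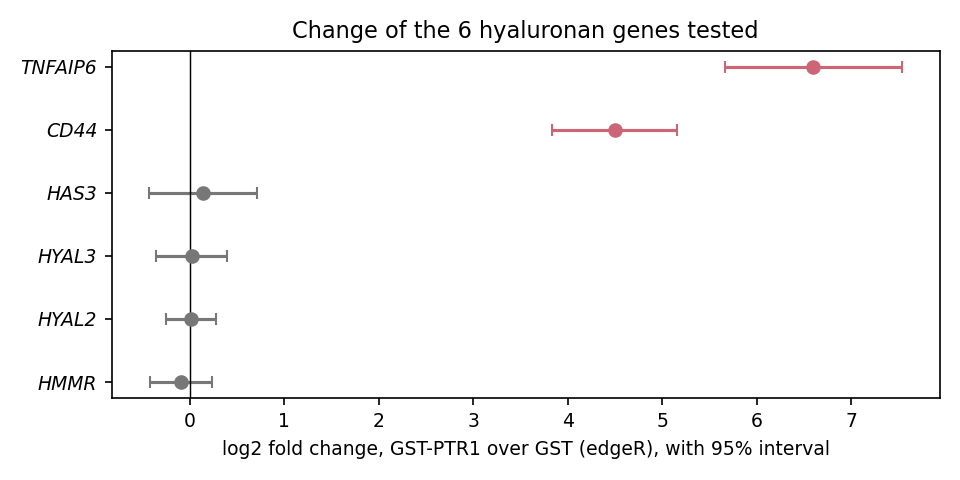
Log2 fold change of GST-PTR1 over GST for the 6 genes that could be tested, with 95% intervals from edgeR, in red where the adjusted p was under 0.05 and in grey otherwise. The intervals of TNFAIP6 (5.66 to 7.54) and CD44 (3.84 to 5.15) lie apart from 0, and the other intervals include it.

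The order of the levels per kilobase therefore differed between the treatments in the places of TNFAIP6 and CD44. HYAL1 and HAS2, at no more than 6 counts in any library, also exchanged places. With GST the mean RPKM fell from HMMR (26.9) to HYAL2 (4.40), HYAL3 (2.65), HAS3 (0.229), TNFAIP6 (0.0759) and CD44 (0.0401), with no overlap between neighbours over the 3 libraries. Below CD44 the ranges of neighbours overlapped, in the order HYAL1, HAS2, VCAN and HAS1. With GST-PTR1 the order was HMMR (22.0), TNFAIP6 (6.56), HYAL2 (3.89), HYAL3 (2.34), CD44 (0.769), HAS3 (0.220) and HAS2 (0.0321), and among these only TNFAIP6 and HYAL2 overlapped. HYAL1 and VCAN followed, with overlapping ranges, and HAS1 was at 0. These are levels on library totals, and their means are described without a test between genes.

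**Figure D3:**
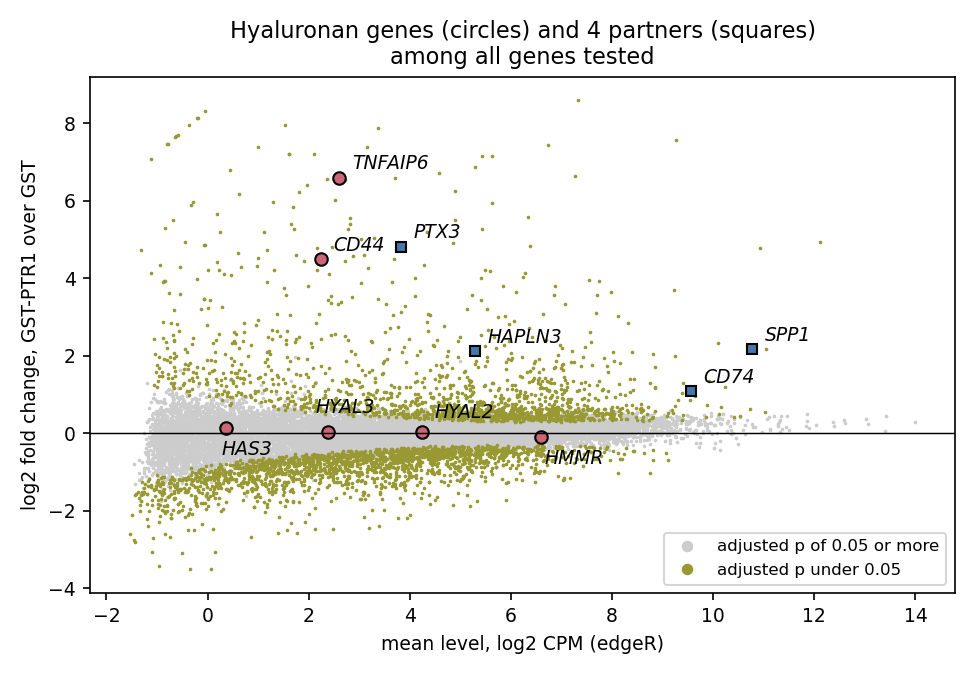
Log2 fold change of GST-PTR1 over GST against mean level (log2 CPM) for the 16926 genes tested, with genes of adjusted p under 0.05 in olive and the others in grey. The 6 tested hyaluronan genes are red circles, and 4 genes of the lists described below are blue squares. TNFAIP6 (6.60) and CD44 (4.49) lie among the large increases of low to moderate level, while HMMR, HYAL2, HYAL3 and HAS3 lie near 0.

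The 5 tested members with a mean of at least 50 counts were all tested members but HAS3. For these, the genes nearest in profile were sought among 13359 genes that met the same minimum. The measure was the root mean square distance over the 6 libraries between mean-centred log2 CPM values on TMM-scaled totals (0.1 CPM added). Mean CPM values given here are on library totals. For CD44 the nearest genes were CHI3L1, a secreted chitinase-like protein, at a distance of 0.215, and IL32, a cytokine, at 0.225. CHI3L1 went from a mean of 24.4 to 328 CPM and IL32 from 4.82 to 78.2 CPM. For TNFAIP6 they were C1QB, a chain of the complement component that binds immune complexes, at 0.123, and BCL2A1, an anti-apoptotic protein, at 0.221. C1QB went from 0.0527 to 7.24 CPM and BCL2A1 from 1.36 to 52.2 CPM. The GST mean of C1QB lay under the 0.1 CPM added, so its distance to TNFAIP6 depends on that constant. For HMMR they were NDC80, a kinetochore protein of dividing cells, at 0.0419, and HPF1 at 0.0422. HYAL2 was nearest to ZC4H2 and ACTG1P19, and HYAL3 to ANXA5 and MRPL10. With 6 libraries of 2 treatments, this distance does not tell a like difference between treatments from a like spread within them.

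The start of TNFAIP6, the member with the largest change, is shown because its 250 bases before the start hold 1 of the motifs searched. The sequence is from RefSeq (GRCh38.p14, chr2:151357342-151357591, plus strand), a build other than that of the counts, and the capitals mark the AP-1 motif.
TNFAIP6: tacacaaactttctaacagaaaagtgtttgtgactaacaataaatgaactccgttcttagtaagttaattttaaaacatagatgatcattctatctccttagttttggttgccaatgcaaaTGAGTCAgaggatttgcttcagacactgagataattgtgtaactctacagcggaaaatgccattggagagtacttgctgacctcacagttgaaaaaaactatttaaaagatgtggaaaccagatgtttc
The motif TGANTCA, the letters to which AP-1 factors such as FOS and JUN bind, begins 129 bases before the start. Windows of 300 bases, from 250 before to 50 after a start, were searched on both strands for this motif and for the NF-κB motif. RefSeq gave 10 windows for 9 of the 10 genes, HYAL3 having more than 1, and HAS2 was not matched. The AP-1 motif was in 1 of the 10 windows, beside 7.71% of 35116 windows of all genes. The NF-κB motif was also in 1 of the 10, the further window of HYAL3, beside 5.91% of all windows, and was not in the windows of CD44 and TNFAIP6. The windows of PTX3 and HAPLN3, genes described below that were added to the search after their values were seen, each held the NF-κB motif. The first window of each of these genes other than HAS3 and TNFAIP6, that of CD44 included, overlaps annotated exons of the same gene, so it is not sequence upstream of every transcript. A match is a description of letters and not a binding site, and no match says only that these letters are not in this window.

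Around the 10 genes, 8 lists of partners held 68 genes, of which 38 could be tested, 5 were called higher and 3 lower, beside 9.15% and 11.4% of all genes tested. On library totals in place of TMM factors, 4 were called higher and 10 lower, beside 5.48% and 22.4% of all genes. The median log2 fold change of those tested was -0.06, beside 0.01 for all genes tested.

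The link protein and lectican list, which holds the family of HAPLN1 itself, had 1 of 7 genes tested. HAPLN3, a link protein of wider tissue distribution, rose from 222, 282 and 418 counts with GST to 1373, 1633 and 2679 with GST-PTR1. These were 14.6, 14.0 and 17.8 CPM against 60.0, 56.6 and 59.9 CPM, and no library of one treatment reached those of the other. Its log2 fold change was 2.12 ± 0.13 (SE), a 4.35-fold difference, with an adjusted p of 7.72e-07 by edgeR. The gene of the added ligand, HAPLN1, had 1 count in a single GST-PTR1 library and 0 in the other 5. HAPLN2 had 2 counts in all, both with GST, and HAPLN4 had 0. The other lecticans were near the floor, with ACAN, NCAN and BCAN at no more than 7 counts in any library.

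Among the heavy chains and partners of TNFAIP6, 1 of 8 genes was tested. PTX3, a long pentraxin that joins heavy chain and hyaluronan complexes, rose from 12, 19 and 28 counts with GST to 496, 662 and 1291 with GST-PTR1. Its levels were 0.789, 0.946 and 1.19 CPM against 21.7, 23.0 and 28.9 CPM, without overlap, and the log2 fold change was 4.82 ± 0.22 (SE, adjusted p = 1.06e-07 by edgeR). Its place by size of change, 63, was just above that of CD44. The genes for the heavy chains themselves were at the limit of detection, with ITIH1, ITIH2 and ITIH3 at 0 counts and ITIH4 and ITIH5 at no more than 3 in any library. Counts of TNFAIP6 itself reached 590 in the same libraries.

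Partners of CD44 were tested in 10 of 12 cases, 2 were called higher and 0 lower. SPP1, the secreted ligand osteopontin, rose from 762, 675 and 602 CPM with GST to 2326, 2400 and 3209 CPM with GST-PTR1. Its log2 fold change was 2.17 ± 0.18 (SE, adjusted p = 8.20e-06 by edgeR). CD74, the invariant chain that serves with CD44 as a receptor for MIF, rose from 534, 478 and 540 CPM to 1066, 920 and 902 CPM. Its log2 fold change was 1.09 ± 0.11 (SE, adjusted p = 5.07e-05 by edgeR). Neither SPP1 nor CD74 overlapped between treatments. The other 8 tested, which include the membrane-to-actin linkers of the ezrin family and the sheddases ADAM10 and ADAM17, did not pass the test. Of all 10 tested, 6 had an unadjusted p under 0.05 by edgeR. ADAM10 was called lower on library totals (log2 fold change -0.45, adjusted p = 0.0111 by edgeR). MSN and EZR of the ezrin family, with log2 fold changes of 0.29 and 0.27, were called higher in 2 and 1 of 14 alternatives.

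Of 10 spindle and centrosome partners of HMMR, 10 were tested and 0 were called in either direction by edgeR, with 1 at an unadjusted p under 0.05. On library totals in place of TMM factors 3 of them were called lower, beside 22.4% of all genes. In CPM 7 did not overlap between treatments, beside 43.1% of all genes tested. The count of 0 thus holds relative to the bulk of genes. Their log2 fold changes lay between -0.25 and 0.08. TPX2, a spindle assembly factor and the most abundant of them per kilobase, had 3757, 5631 and 6155 counts with GST and 5916, 6682 and 9121 with GST-PTR1. Its log2 fold change was 0.0043 with an adjusted p of 0.982.

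The other receptors and binding proteins gave 3 tested genes of 9. C1QBP, a mainly mitochondrial protein that binds hyaluronan, had levels of 206, 240 and 246 CPM with GST and 265, 245 and 284 CPM with GST-PTR1, and was called higher by 0.40 on the log2 scale (adjusted p = 0.0452 by edgeR) although its ranges overlapped on library totals. The call was lost when any 1 of the 6 libraries was left out (adjusted p of 0.0636 to 0.125 by edgeR) and on library totals (0.229). TLR4, a receptor of innate immunity that fragments of hyaluronan can engage, had 57.9, 62.8 and 53.5 CPM with GST and 39.4, 40.6 and 38.8 CPM with GST-PTR1. It was called lower by edgeR at -0.36 (adjusted p = 0.0371), and this call was lost when any library other than the GST library of 15202503 counts was left out (0.0602 to 0.113). LYVE1 and STAB2, receptors of lymphatic and sinusoidal endothelium, had 0 counts, and STAB1 had 1.

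Of the enzymes that make the sugar nucleotides of hyaluronan, 7 of 8 were tested, and 0 were called higher and 1 lower. On library totals 4 were called lower, 57.1% of those tested, beside 22.4% of all genes. UGDH, which makes UDP-glucuronic acid, one of the building blocks of the polymer, had 11.8, 9.86 and 9.68 CPM with GST and 7.04, 5.65 and 5.75 CPM with GST-PTR1. The treatments did not overlap and the log2 fold change was -0.57 ± 0.15 (SE, adjusted p = 0.0191 by edgeR). The call was lost without the GST-PTR1 library of 28837431 counts (adjusted p = 0.09) or that of 44688737 counts (0.0532). GFPT2, the gene of this list under the filter, had 2, 3 and 2 counts with GST and 6, 14 and 17 with GST-PTR1. Its pooled ratio was 3.22, with an exact interval of 1.42 to 8.56, and it was not tested.

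The other breakdown enzymes had 5 of 8 genes tested and 0 called by edgeR, with 0 at an unadjusted p under 0.05. GUSB, the lysosomal glucuronidase and the most abundant of them per kilobase, had a log2 fold change of 0.01 (adjusted p = 0.972 by edgeR). Of the proteases that cut versican, 1 of 6 was tested. ADAMTS20 fell from 18, 29 and 24 counts with GST to 15, 12 and 19 counts in the larger GST-PTR1 libraries, 1.18, 1.44 and 1.02 CPM against 0.656, 0.416 and 0.425 CPM. Its log2 fold change was -1.12 ± 0.30 (SE, adjusted p = 0.0223 by edgeR), and the call was lost when the library of 20077280 (0.0797), 28837431 (0.0874) or 44688737 counts (0.0885) was left out. It entered the test through its GST counts alone, so that a difference was a condition of entry. ADAMTS4, singled out after its values were seen, was under the filter with 0 counts in each GST library and 6, 5 and 8 with GST-PTR1.

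**Figure D4:**
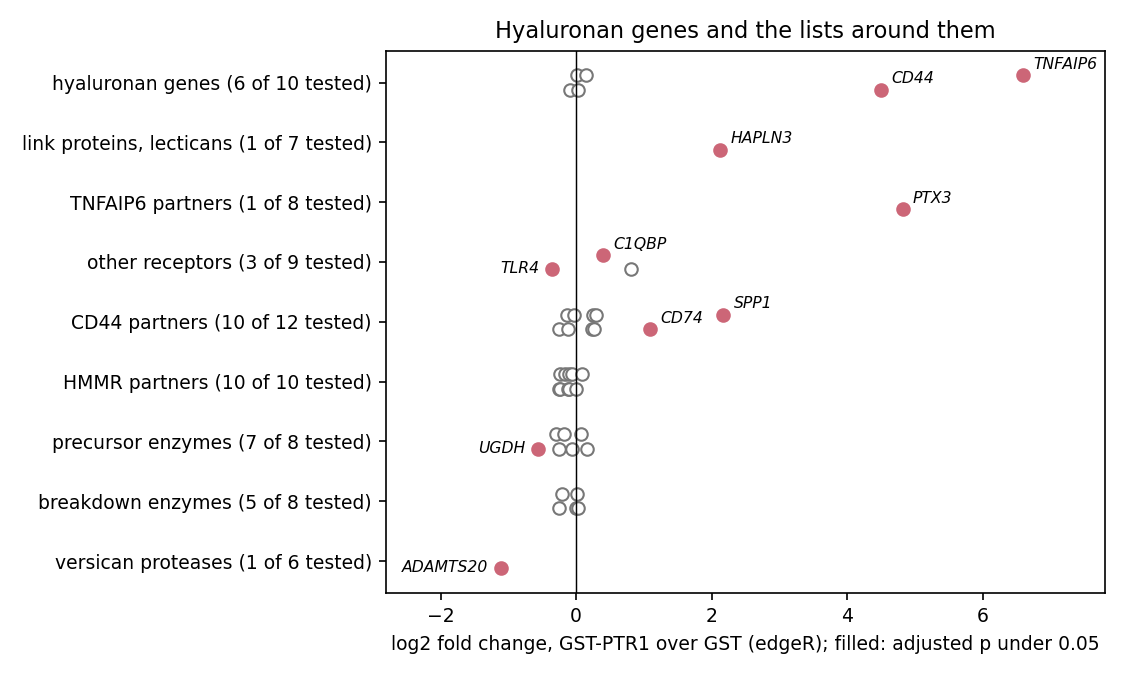
Log2 fold change of GST-PTR1 over GST for every tested gene of the hyaluronan genes and of the 8 lists around them, 1 row a list, with the number tested beside its name and points offset in height for legibility. Filled points passed an adjusted p of 0.05 in edgeR and carry their names. The spindle partners of HMMR (with TMM factors) and the breakdown enzymes hold no filled point, and the largest changes are those of TNFAIP6, PTX3 and CD44.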

How the data were processed

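Whole-number counts of reads per gene were deposited by the authors, made with featureCounts 1.5.0-p1 on Ensembl release 75 of GRCh37, reverse-stranded, without reads that map to several places or overlap several genes. The aligner is not given in the sources used here. The deposited table also gives exon lengths, and its counts are not normalized. The 5904 genes off the primary chromosomes were left out when the listed genes were matched by name. They stayed in the library totals and among the genes open to the test. Libraries were assigned to treatments by column names, whose numbers do not match the samples' replicate numbers. The study states 3 biological replicates per treatment, so n is 3. Libraries of a treatment differed by more than sampling noise (chi-square per gene of at least 7.66), which by itself does not show that they are independent.

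CPM and RPKM were computed from the counts and library totals. Treatments were compared in R 4.3.3 with edgeR 4.0.16 (TMM factors, filterByExpr, glmQLFit, glmQLFTest), with Benjamini-Hochberg adjustment over 16926 genes. The filter needs about 0.432 CPM in 3 libraries. Floors are 3 counts, which is 0.0671 to 0.197 CPM per library. Intervals of pooled ratios are exact binomial ones at 95%. An exact permutation test of 3 libraries against 3 cannot go below p = 0.1. The alternatives were DESeq2's size factors, library totals, DESeq2 1.42.0, limma 3.58.1 (voom), other filters and leaving out each library. The fits of edgeR, DESeq2 and limma voom were tried on simulated counts with known changes. DESeq2 exceeded the first limit on the share of false calls, and that limit was then raised.

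Members and lists were chosen with earlier results of these data known. Named are all 10 members, genes that share exon bases with them, the nearest profiles, all link proteins and lecticans, and of each list up to 4 called genes or else the most abundant. The motif search used RefSeq windows of GRCh38.p14, and the printed one was picked after its match was seen.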

Additional observations from a re-analysis of the deposited data

How the results depend on the processing

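CD44 and TNFAIP6 were called higher in all 13 alternatives in which they could be tested, with log2 fold changes of 4.29 to 4.86 and 6.33 to 6.90 and adjusted p of at most 9.19e-05 and 8.83e-05. The alternatives reuse the same libraries, and both genes entered the main test through their GST-PTR1 counts alone, so this agreement is not independent support. With at least 10 counts required in every library, 0 members were called higher, because that filter removes CD44 and TNFAIP6. No member was called lower in any alternative. Directions of members near 0 were not stable. On library totals in place of TMM factors, which shift the median of all genes by -0.20, the log2 fold change was -0.059 for HAS3, -0.18 for HYAL2 and -0.18 for HYAL3, and 927 genes were called higher and 3795 lower in place of 1549 and 1937. Leaving out each library in turn gave -0.24 to 0.068 for HMMR, -0.048 to 0.092 for HYAL2 and -0.047 to 0.14 for HYAL3, and between 1051 and 1531 genes called higher and between 1178 and 1818 called lower. A filter of at least 1 count in any library gave 2608 genes called higher. HAPLN3, PTX3, SPP1 and CD74 were called in the same direction in all 14 alternatives. Among fits chosen after seeing the data, the 4 libraries with shared column numbers gave 2 members called higher with that number as a replicate block and 2 without, and 1603 and 1790 genes called higher. Same-numbered libraries did not deviate together (correlation -0.03 over 2 pairs). The replicate number of the samples could not be used as a block, because the columns do not carry it. Depth limits HAS1, HAS2, HYAL1 and VCAN, whose counts were too few for a test, and the intervals of HAS3.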
